A study of Mus musculus with 4 samples.

Results

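Natural killer (NK) cells were followed in draining lymph nodes of wildtype C57BL/6 mice, in 2 control libraries and 2 libraries from mice injected subcutaneously with 100 µg of extracellular vesicles (EVs) from induced pluripotent stem cells. The series' design text places the harvest at day 5, whereas the sample labels give a duration of 24 hours, and the controls are labelled as untreated while the study's methods name an injection of buffer. Each library was a droplet library of dissociated lymph node cells, without prior cell enrichment according to the study's methods. Its 3′ tags were counted by unique molecular identifiers (UMIs). The study's methods name 2 biological replicates per group. How many mice went into a library was not given in the sources used here. Each p-value thus measures the spread between 2 libraries a side, which may be partly technical.

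The cells were chosen by measured UMIs. The filter kept barcodes that had 200 to 5000 genes, no more than 20000 UMIs and a mitochondrial share under 10%, and NK cells were those with no UMI of Cd3d, Cd3e, Cd79a or Cd8b1 and at least 2 UMIs of Ncr1 and Klrb1c together. This left 106 NK cells among 32725 cells, namely 22 in Control 1, 37 in Control 2, 15 in EV 1 and 32 in EV 2. The libraries held 50749656, 58100433, 68116085 and 70418672 UMIs in all, the NK cells 143437, 268881, 130763 and 249449, and the median NK cell 6528, 7275, 8426 and 6983. NK cells were compared with CD8 T cells of the same libraries (a UMI of Cd3d or Cd3e and of Cd8b1, none of Cd79a or Cd4), of which there were 2023, 2101, 1093 and 1470. Pairs of libraries shared 12 to 26 cell barcodes. No NK cell of one library shared its barcode with an NK cell of another, and none was called a doublet by Scrublet. The median share of ribosomal protein UMIs was 18.9, 17.0, 20.8 and 14.3 percent in NK cells and 31.0, 31.1, 31.3 and 28.7 percent in CD8 T cells.

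NK cells are innate lymphocytes that kill infected or transformed cells without a rearranged antigen receptor. They weigh signals from activating receptors, which use the adaptors Tyrobp (DAP12), Hcst (DAP10) and Fcer1g, against inhibitory receptors such as many Ly49 (Klra) proteins and the Klrd1-Klrc1 heterodimer, and they release perforin and granzymes. In mice they pass from Cd27-positive to Itgam (CD11b)-positive stages under the T-box factors Eomes and Tbx21. Type 1 innate lymphoid cells share Ncr1, Klrb1c and Tbx21 with them and are known for Il7r, Cxcr6 and Itga1 and for little Eomes.

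Ncr1 (the activating receptor NKp46) and Klrb1c (NK1.1) chose the cells, and Gzma (granzyme A) and Klra4 (the activating receptor Ly49D) are the other markers named for them. The 150 bases before the RefSeq start of each gene are shown because the gated cells are described by these 4 genes. The window of Klrb1c lies within the gene as placed by GENCODE vM21 (chr6:128778485-128789215), downstream of the start given there. The sequences come from RefSeq on GRCm38.p6 and are printed 5′ to 3′ on the gene's strand, and capitals mark matches on either strand to TGTGGT (a RUNX core) or AGGAAG (an ETS core).
Ncr1 (chr7:4337565-4337714, plus strand): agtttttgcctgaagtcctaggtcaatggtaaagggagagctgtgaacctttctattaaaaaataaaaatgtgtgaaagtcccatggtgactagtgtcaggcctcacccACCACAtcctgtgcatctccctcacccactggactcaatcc
Klrb1c (chr6:128788642-128788791, minus strand): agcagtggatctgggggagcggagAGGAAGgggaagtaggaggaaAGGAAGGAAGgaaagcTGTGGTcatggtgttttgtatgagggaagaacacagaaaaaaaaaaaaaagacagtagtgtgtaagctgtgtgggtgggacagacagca
Gzma (chr13:113100982-113101131, minus strand): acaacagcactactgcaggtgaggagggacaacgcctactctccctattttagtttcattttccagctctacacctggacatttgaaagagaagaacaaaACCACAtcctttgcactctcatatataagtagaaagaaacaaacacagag
Klra4 (chr6:130067272-130067421, minus strand): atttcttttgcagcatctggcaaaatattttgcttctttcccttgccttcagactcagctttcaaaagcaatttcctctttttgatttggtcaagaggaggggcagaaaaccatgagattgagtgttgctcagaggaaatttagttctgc
TGTGGT or its complement was present in 3 of these 4 windows and in 8.40% of 32851 promoter windows of the same length. AGGAAG or its complement was present in 1 of 4 and in 19.7% of all windows, and 2 of its 3 matches before Klrb1c overlap each other. The T-box letters GGTGTGA, present in 1.92% of all windows on either strand, matched none of the 4. These matches describe letters, and no binding was measured.

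The gate fell in an almost empty stretch of values. Of 1309 cells without UMIs of the 4 excluded lineage genes, 1201 had no UMI of Ncr1 or Klrb1c, 2 had 1 UMI, 3 had 2, 4 had 3 and 99 had 4 or more. The NK cells had medians of 13.5, 16, 16 and 16.5 UMIs of both genes together in Control 1, Control 2, EV 1 and EV 2, the order of libraries used throughout, and 97 of the 106 held both receptors. The gate left out 89 cells with 2 or more such UMIs and a UMI of Cd3d or Cd3e.

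NK cells were 0.270% (95% exact Clopper-Pearson interval 0.169 to 0.409) of the filtered cells in Control 1, 0.469% (0.33 to 0.646) in Control 2, 0.184% (0.103 to 0.303) in EV 1 and 0.375% (0.257 to 0.529) in EV 2. Intervals and limits from counts cover counting error only. The groups overlapped, with 0.370% ± 0.140 in the control and 0.279% ± 0.135 in the EV libraries (SD, n = 2 each), and the difference of -0.0901 percentage points had an exact two-sided permutation p of 0.667, where 2 against 2 libraries cannot go below 0.333. B cells (at least 2 UMIs of Cd79a, none of Cd3d or Cd3e) made up 35.5, 30.4, 57.4 and 49 percent of the cells. As a share of the cells without Cd79a, NK cells were 0.466, 0.732, 0.520 and 0.860 percent, so the direction of the difference turned with the denominator. It also turned without Control 2 (0.00922 percentage points) or without EV 1 (0.00563).

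**Figure D1:**
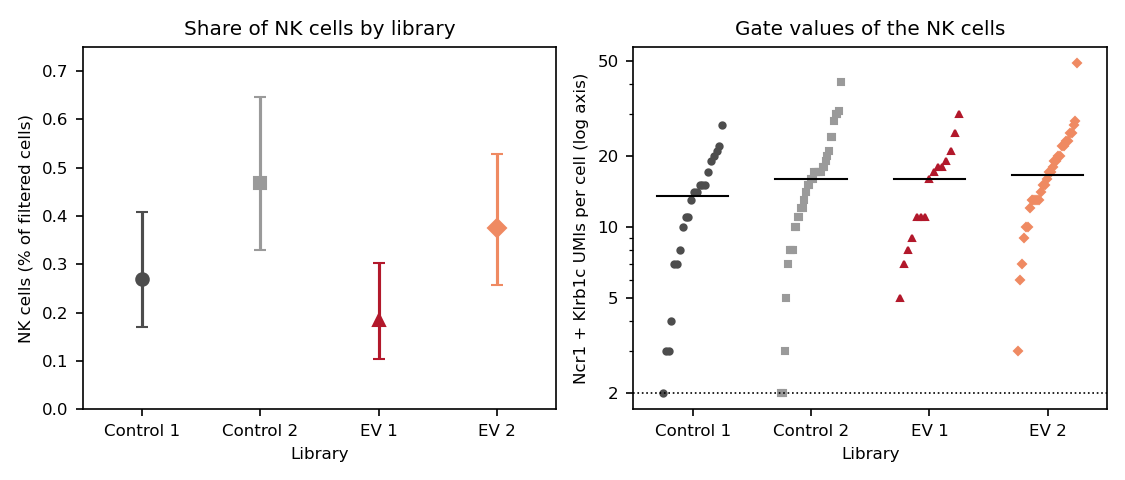
Share of NK cells among filtered cells by library with exact 95% intervals (left), and UMIs of Ncr1 and Klrb1c together in each NK cell on a log axis (right; 1 point a cell, line at the median, dotted line at the gate of 2 UMIs). The control and EV shares interleave, and most cells sit far above the gate.

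Most of the wider NK marker list, which includes the gate genes Ncr1 and Klrb1c, was detected. Of 19 NK identity genes, 18 had a UMI in at least 10% of the NK cells, 18 of those were higher than in CD8 T cells in all 4 libraries and 15 at least 4-fold. Over 7081 genes detected at that level, 30.4% were higher in all libraries, 2.03% at least 4-fold, and 9.53% were lower in all. Levels here are summed UMIs of a gene scaled to the summed UMIs of the cell type in the library, as CPM, ratios are log2 of CPM + 10 within a library, and since the cells were chosen by their genes these ratios are a description without a test. Tyrobp stood at 2224, 2496, 2424 and 2437 CPM in NK cells against 2.41, 7.67, 2.95 and 3.39 CPM in CD8 T cells, a log2 ratio of 7.43 ± 0.19 (SD, n = 4 libraries). Fcer1g, the adaptor for Ncr1, stood at 1534, 1677, 1591 and 1852 CPM (ratio 7.02 ± 0.21). Klrk1 (NKG2D) was found in 99.1% of NK cells and 6.70% of CD8 T cells (ratio 5.94 ± 0.25). EV and control levels overlapped for each of these 3 genes.

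Granzyme A had the largest ratio among genes with a UMI in at least 25% of NK cells. Gzma stood at 2872, 4054, 5866 and 4714 CPM in NK cells against 2.48, 6.37, 2.86 and 2.74 CPM in CD8 T cells, a log2 ratio of 8.29 ± 0.47. It was found in 81 of 106 NK cells, with a median of 37 UMIs in those, against 1.02% of CD8 T cells and 0.120% of B cells, a cell type not known for it (thinned to 2000 UMIs a cell, 76.0%, 0.210% and 0.0851%; median depths 6983, 8413 and 5250 UMIs). Of 20 cytotoxic granule genes, 17 were detected, 11 were higher in all libraries and 5 at least 4-fold. Over all detected genes 30.4% were higher in all libraries and 2.03% at least 4-fold. Perforin (Prf1), which opens the target cell's membrane, stood at 251, 439, 329 and 549 CPM against 44.0 to 57.1 in CD8 T cells. Granzyme B (Gzmb) stood at 69.7, 197, 382 and 241 CPM and was found in 40.6% of the cells, with a median of 2 UMIs where present. Granzyme K, by contrast, had a UMI in 0.943% of NK cells.

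Chemokine RNA was abundant. Ccl5, which draws T cells and other leukocytes, stood at 6191, 8041, 9552 and 9445 CPM in NK cells and at 202 to 263 CPM in CD8 T cells (ratio 5.17 ± 0.24). Xcl1, which recruits cross-presenting dendritic cells, stood at 641, 974, 788 and 445 CPM against 15.1 to 31.1 (ratio 4.58 ± 0.60). Ccl4 was uneven between libraries, at 83.7, 792, 91.8 and 116 CPM. Interferon gamma (Ifng) stood at 27.9, 55.8, 68.8 and 44.1 CPM, in 24.5% of the cells.

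Ly49 receptors were patchy from cell to cell. Of 10 Klra genes, 6 were detected in at least 10% of the cells. Of these, 6 were higher than in CD8 T cells in all libraries and 5 at least 4-fold. The shares over all detected genes were 30.4% and 2.03%. Klra4 stood at 1576, 751, 1262 and 938 CPM (ratio 6.59 ± 0.49), from 44 cells that held a median of 17 UMIs, while 62 cells held none. Klra8 (Ly49H, the receptor for a viral protein) was found in 51 cells with a median of 12 UMIs and Klra7 (the inhibitory Ly49G) in 52 with a median of 7.5. Of the 106 cells, 31 had none of these 3 genes, 23 had 1, 32 had 2 and 20 had all 3. Some Ly49 genes are near-identical copies, so their reads may be split between them.

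Of 15 cytokine receptor genes detected in NK cells, 9 were higher than in CD8 T cells in all libraries and 1 lower. Of 17 homing and egress genes, 11 were higher and 2 lower. Over all detected genes 30.4% were higher and 9.53% lower, so the counts of lower genes were near that share. Il2rb, shared by the receptors for interleukins 2 and 15, was in 98.1% of NK cells and 34.3% of CD8 T cells (ratio 2.94 ± 0.20). The interleukin 18 receptor chains Il18r1 and Il18rap had ratios of 2.73 ± 0.15 and 3.98 ± 0.27, and the interleukin 12 receptor chain Il12rb2 3.99 ± 0.53. Ccr7, which guides T cells into the lymph node, had no UMI in 106 NK cells, against 72.1% of CD8 T cells with one. Taken as 3 cells of 106, an approximate limit and not an exact interval as above, the share of NK cells with a UMI could be up to 2.83%. The egress receptor S1pr1 had a ratio of -2.50 ± 0.45. Itga2 (CD49b) was in 81.1% and Itgb1 in 92.5% of NK cells. Among transcription factors, Tbx21 was in 75.5%, Eomes in 70.8%, Id2 in 94.3% and Zeb2 in 66.0% of NK cells, with ratios of 3.40 ± 0.54, 2.27 ± 0.51, 3.43 ± 0.20 and 5.38 ± 0.76.

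The 10 genes that stood lowest against CD8 T cells were mostly genes of the T cell programme. Of 16 genes on the T cell list, 5 were detected in at least 10% of the NK cells. In all libraries 1 of them was higher and 4 were lower than in CD8 T cells, where 30.4% and 9.53% of all detected genes were. Themis had a ratio of -6.64 ± 0.32, Bcl11b -5.25 ± 0.71, Cd8a -5.21 ± 0.06 and Cd3g -5.10 ± 0.94, beside Trac, Dapl1, Gm44174 and the gate genes Cd8b1, Cd3d and Cd3e. Transcripts of the T cell receptor constant regions were found all the same, with Trbc1 in 76.4%, Trbc2 in 39.6% and Trdc in 33.0% of NK cells. Trac was in 3.77% of them, and Cd5 in none.

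**Figure D2:**
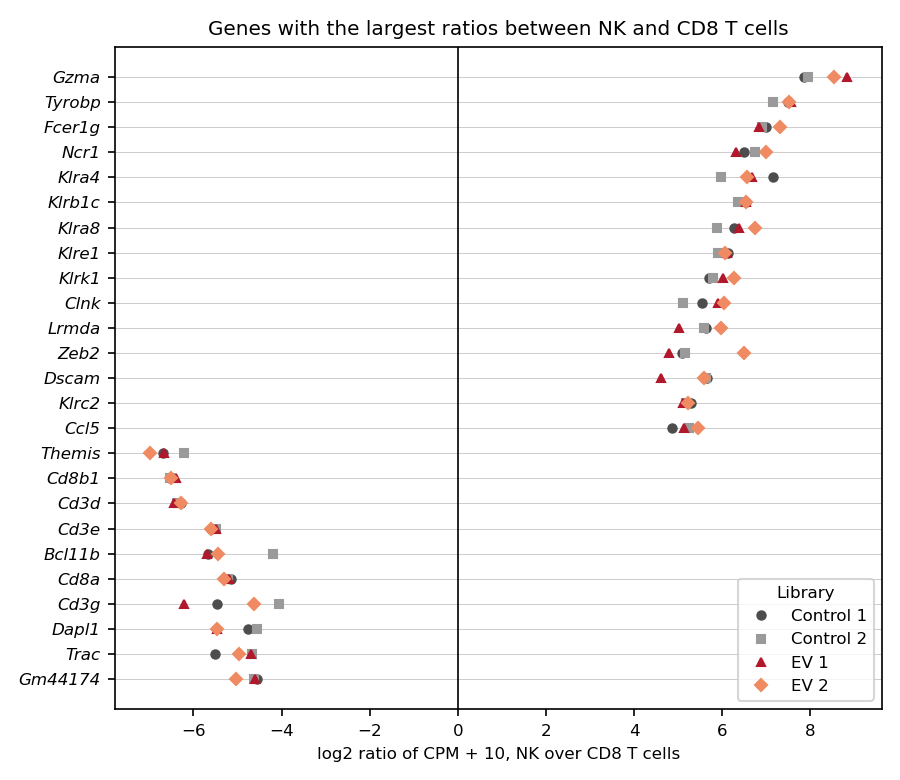
log2 ratio of CPM + 10 in NK over CD8 T cells, 1 point for each of 4 libraries, for the 15 genes with the largest and the 10 with the smallest mean ratio. Gzma averages 8.29 and Themis -6.64, and the points of Zeb2, Bcl11b and Cd3g spread most.

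Marker lists of other cells were detected in part. Of 14 B cell genes, 5 were detected in at least 10% of the NK cells, and the list summed to 188, 275, 275 and 281 CPM in NK cells against 300.2, 293, 319 and 344 in CD8 T cells. Its most abundant gene was Ighm, at 125, 134, 138 and 100.2 CPM, while Ms4a1 and the gate gene Cd79a had no UMI. Igkc was in 14.2% of NK and 14.1% of CD8 T cells. Of 13 myeloid genes 3 were detected, the list summed to 272, 245, 222 and 212 CPM against 66.7, 87.6, 81.7 and 88.0 in CD8 T cells, led by Cst3, and Csf1r, C1qb, Adgre1, S100a8, S100a9 and Fcgr1 had no UMI. Lyz2 was in 10.4% of NK and 2.90% of CD8 T cells. The plasmacytoid dendritic cell list summed to 279, 376, 596 and 453 CPM against 190.4, 218, 238 and 298, led by Irf8, which is also on the mature NK list. The part of such RNA in the results was not tested. No UMI of 4 haemoglobin genes was found in NK cells.

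A minority of the gated cells went against the label. Il7r, the interleukin 7 receptor, had a UMI in 28 cells, 10, 10, 4 and 4 by library. This split and the genes named for it were chosen after the values were seen and are described without a test. The 28 cells had a median of 7455 UMIs and the other 78 a median of 6945. Of the 28, 16 held Gpr183, 14 Tnfsf10, 14 Kit, 13 Itga1, 13 Tmem176a, 12 Tmem176b and 11 Cxcr6, against 2, 11, 4, 5, 2, 0 and 0 of the other 78. Several cytotoxic and mature genes were more frequent in the other 78. Gzma was in 6 of 28 against 75 of 78 cells (522 against 5928 CPM), Gzmb in 1 against 42, Eomes in 7 against 68, Klrg1 in 0 against 20 and Klra4 in 3 against 41. Of the 6 cells with only 1 or 2 Il7r UMIs, just inside the split, 5 held Gzma, with 100 of the 121 Gzma UMIs in the 28, against 1 of the 22 cells with 3 or more. Tbx21 was in 17 of 28 and 63 of 78, Ncr1 in 24 and 77, and Cd27 in 16 and 45. Other genes of the cytotoxic and mature lists were more frequent in the 28, with Gzmc in 5 against 3, Rab27a in 18 against 34, Lamp1 in 14 against 27, Ctsc in 15 against 33 and Cx3cr1 in 8 against 2. Cx3cr1 came mostly from Control 2, in 7 of its 10 Il7r cells. The gated cells were thus mixed, and the comparisons of EV with control were repeated without the 28, an alternative chosen after the values were seen.

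**Figure D3:**
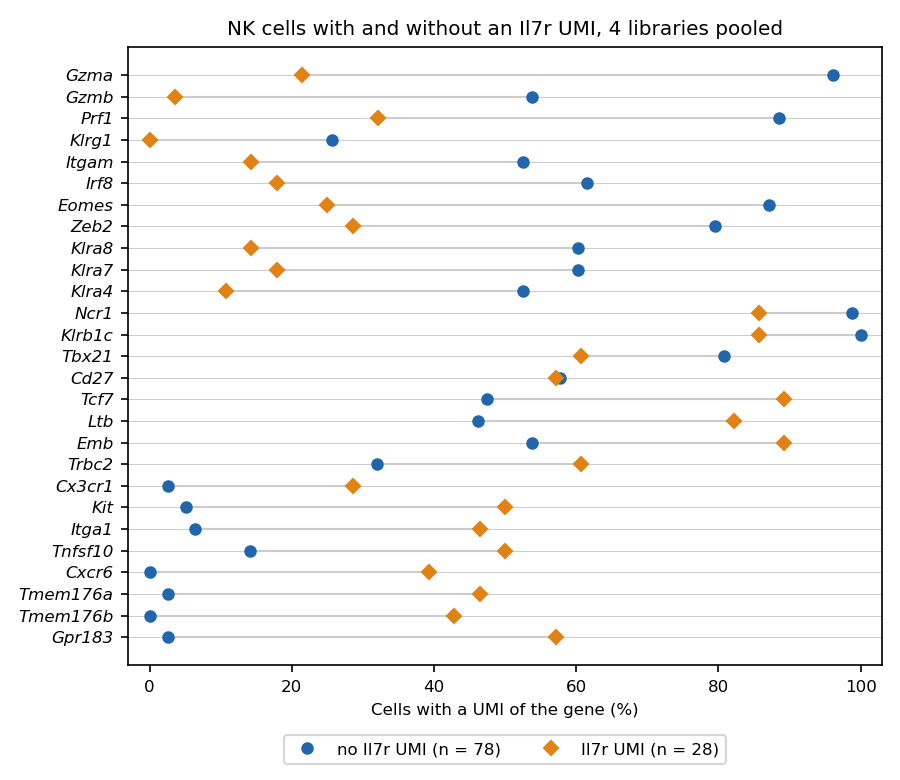
Percentage of gated cells with a UMI of each gene, for the 28 cells with an Il7r UMI and the 78 without, 4 libraries pooled. Gzma, Gzmb, Eomes and the Klra genes are more frequent in cells without Il7r, and Gpr183, Tmem176a, Tmem176b and Cxcr6 in cells with it, while Cd27 is at 57.1% and 57.7%.

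All 4 combinations of the maturity markers Cd27 and Itgam were found among the gated cells, the Il7r cells included. A missing UMI can be a missed transcript, so the combinations are not read as stages. With all UMIs, 35 of 106 cells held Cd27 without Itgam, 26 both, 19 Itgam without Cd27 and 26 neither. Both genes gave few UMIs a cell (medians of 1 for Cd27 and 2 for Itgam where present), so cells were thinned to 2000 UMIs to compare libraries, which left out 1 cell of each control library. Then 15 of 104 cells held Cd27 without Itgam, 6 both, 17 Itgam without Cd27 and 66 neither. Itgam without Cd27 was found in 4 of 21, 3 of 36, 4 of 15 and 6 of 32 cells, which is 13.7% ± 7.58 in the control and 22.7% ± 5.60 in the EV libraries (SD, n = 2 each; exact permutation p = 0.667). The difference of 9.02 percentage points was 3.66 without Control 2, 5.06 without EV 1 and 14.4 without Control 1. Cd27 without Itgam was found in 17.5% ± 8.98 and 16.5% ± 14.4 (n = 2 each; exact permutation p = 1). At this setting both classes overlapped between the groups. Itgam without Cd27 did not with a gate of 1 UMI (9.56 points), nor did Cd27 without Itgam after thinning to 1000 UMIs (-4.84 points). With all UMIs Itgam without Cd27 was in 4.55%, 16.2%, 20% and 28.1% of the cells, where the groups did not overlap. Klrg1, which marks the last stage, was in 0 of 21, 4 of 36, 0 of 15 and 5 of 32 thinned cells, a difference of 2.26 percentage points, with overlap. With all UMIs it was in 1 of 22, 6 of 37, 3 of 15 and 10 of 32 cells, a difference of 15.2 points without overlap (exact permutation p = 0.333).

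After thinning to 2000 UMIs, shares of Il7r, granzyme A and granzyme B cells did not overlap between the groups. In thinned cells Il7r was in 9 of 21, 8 of 36, 2 of 15 and 2 of 32, which is 42.9%, 22.2%, 13.3% and 6.25%. With all UMIs the shares were 45.5%, 27.0%, 26.7% and 12.5%, so Control 2 and EV 1 nearly met. Gzma was in 57.1%, 77.8%, 80% and 84.4% and Gzmb in 9.52%, 25%, 33.3% and 43.8% of thinned cells. The differences were -22.7, 14.7 and 21.3 percentage points, each with an exact two-sided permutation p of 0.333, the smallest that 2 against 2 libraries allow. Without Control 1 they were -12.4, 4.41 and 13.5 points, and without Control 2 -33.1, 25 and 29.0. These classes were chosen after the values were seen. With a gate of 3 UMIs the Gzma shares overlapped, and when cells were thinned to 1000 UMIs the Il7r and Gzmb shares did, with differences of -9.97 and 2.12 points. Among thinned cells without an Il7r UMI before thinning, Gzma was in 95.5% ± 6.43 in the control and 96.4% ± 5.05 in the EV libraries, with overlap, a difference of 0.974 points, while Gzmb still differed by 20.2 points without overlap (n = 2 each; exact permutation p = 1 and 0.333). These Gzma shares are near their ceiling and leave little room for a difference, so they decide nothing about EVs. Without the Il7r cells, NK cells were 0.245% ± 0.138 of the filtered cells in the control and 0.232% ± 0.137 in the EV libraries.

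**Figure D4:**
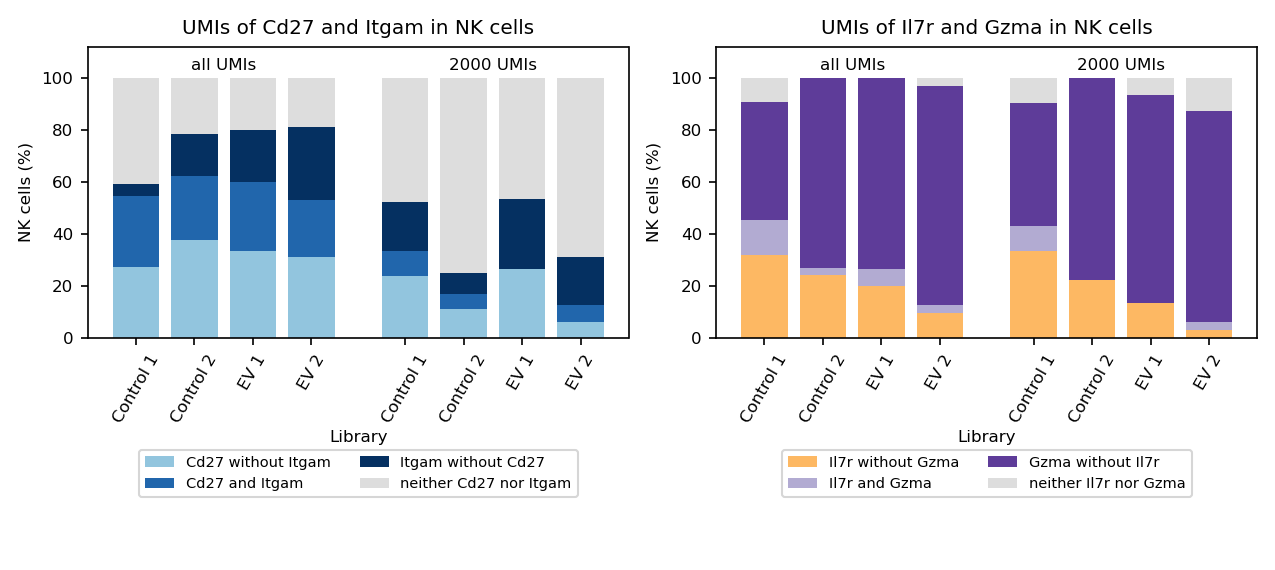
Share of NK cells by UMIs of Cd27 and Itgam (left) and of Il7r and Gzma (right), for each library with all UMIs and after thinning each cell to 2000 UMIs. Cells with neither Cd27 nor Itgam are 26 of 106 with all UMIs and 66 of 104 after thinning, while Il7r cells stay most frequent in Control 1, with 42.9% of thinned cells against 6.25% in EV 2.

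EV and control NK cells were then compared over 3907 genes with edgeR's quasi-likelihood test on counts summed per library. Of these, 5 genes fell and 0 rose at an adjusted p under 0.05 (0.128% called), with 217 genes at an unadjusted p under 0.05. Without EV 2, EV 1 or Control 2, 16, 6 and 4 genes were called higher. Values from here on are TMM-normalized CPM of the fit. AY036118, a non-coding transcript at an rRNA-like locus (chr17:39847113-39848035 in mm10, within and on the strand opposite to Gm42418 at chr17:39846958-39848788), stood at 1095, 1202, 504 and 134 CPM, a log2 change of -1.98 ± 0.35 (SE; edgeR adjusted p = 0.00643). Cdk8, a kinase of the Mediator complex (chr5:146231230-146302874), stood at 907, 563, 378 and 86.3 CPM (-1.82 ± 0.37, edgeR adjusted p = 0.0281). In both genes EV 2 was the lowest library by far and the groups did not overlap.

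Nebl, which encodes an actin-binding protein of the nebulin family (chr2:17343909-17731464), stood at 327, 248, 126 and 56.1 CPM (-1.78 ± 0.36, edgeR adjusted p = 0.0281). The linker histone gene Hist1h1e (chr13:23620629-23622558) stood at 376, 294, 180.1 and 56.1 CPM (-1.68 ± 0.36, edgeR adjusted p = 0.0361). Their groups did not overlap. Ccl4, a chemokine gene (chr11:83662584-83664683), was called as well (-2.17 ± 0.46, edgeR adjusted p = 0.0361), but its groups overlapped at 98.0, 895, 108 and 125 CPM and without Control 2 its change was 0.29. Leaving out EV 2 ended the calls of Cdk8 (-0.90), Nebl (-1.13) and Hist1h1e (-0.85), as did leaving out Control 1 (-1.43, -1.58 and -1.50). The change of AY036118 was -3.08 without EV 1 and -1.18 without EV 2. Cdk8 was at -3.02 without EV 1. DESeq2 called 0 genes, with 35 at an unadjusted p under 0.05. With no upper limits on cells and a mitochondrial limit of 5%, edgeR called 0 of 3973, with 224, and after thinning it called 5 of 1004, of which 3 were among the 5. Without the Il7r cells it called 0 of 2980, with 146.

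Nuclear and rRNA-like transcripts lay lower in the EV libraries as a list. Of 8 tested, 7 were lower in both EV libraries than in both controls, where 17.2% of all tested genes were. The list held 2 called genes, AY036118 and Cdk8, where 0.128% of all tested genes were called. Cdk8 is a protein-coding gene, and its place on the list does not make it an rRNA-like transcript. The list was set with earlier results of these libraries known and is not independent evidence. Its median log2 change was -1.72, against -0.0012 over all tested genes. Gm42418 stood at 13046, 14064, 7717 and 1014 CPM (edgeR adjusted p = 0.395), and reads of it and AY036118 may be confused where the counting did not use strand. Cmss1 stood at 3831, 2869.9, 1855 and 168 CPM (edgeR adjusted p = 0.262). Lars2, a mitochondrial tRNA ligase gene, stood at 286, 289.9, 171 and 21.6 CPM (edgeR adjusted p = 0.0502). These calls turned with the setting, since Gm42418, Cmss1 and Lars2 passed as lower under 6, 7 and 8 of 14 alternatives, and their changes ranged from -3.72 to -0.80, -4.28 to -0.83 and -3.68 to -0.74 with EV 1 or EV 2 left out. In the fit of CD8 T cells of the same libraries, Gm42418 stood at 8579, 9752, 5605 and 762 CPM (edgeR adjusted p = 0.237). Cdk8 stood there at 751, 449, 261 and 92 CPM (edgeR adjusted p = 0.0604). Both were lowest in EV 2 there as well, and 0 of the 8 list genes were called in CD8 T cells. The part of this shared RNA in the NK result was not tested. Of the other Mediator kinase module genes, Med13 stood at 147, 143, 99 and 99.2 CPM, Ccnc at 32.7, 46.2, 72.0 and 69.0 and Cdk19 at 147, 235, 126 and 186, and none of them was called.

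With all 4 libraries and the filter on low counts no gene was called higher. Those with the smallest p were Runx1, Pde3b, Hsp90aa1, Cradd and Serpinb6b. Runx1, a transcription factor of lymphocyte development, stood at 523, 517, 999.5 and 1053 CPM (0.98 ± 0.27, edgeR adjusted p = 0.269), with little spread within either group. Pde3b, which breaks down cyclic AMP, stood at 237, 181, 549 and 341 CPM (1.08 ± 0.30, edgeR adjusted p = 0.341). Serpinb6b, a protease inhibitor, stood at 163, 214, 540.3 and 280.5 CPM, and Cradd, an adaptor of cell death signalling, at 16.3, 84.0, 153 and 159.7 CPM. All 5 were higher in both EV libraries than in both controls, where 17.1% of all tested genes were. They were picked by their p, which favours such a separation, so it is no further evidence. A fit with 1 library left out sets a single library against 2, so for these genes it is read for the size of the change only. Their smallest changes with 1 library left out were 0.96 for Runx1 and 0.50 for Hsp90aa1 (both without EV 2), 0.76 for Pde3b and 0.55 for Serpinb6b (both without EV 1) and 0.90 for Cradd (without Control 1).

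**Figure D5:**
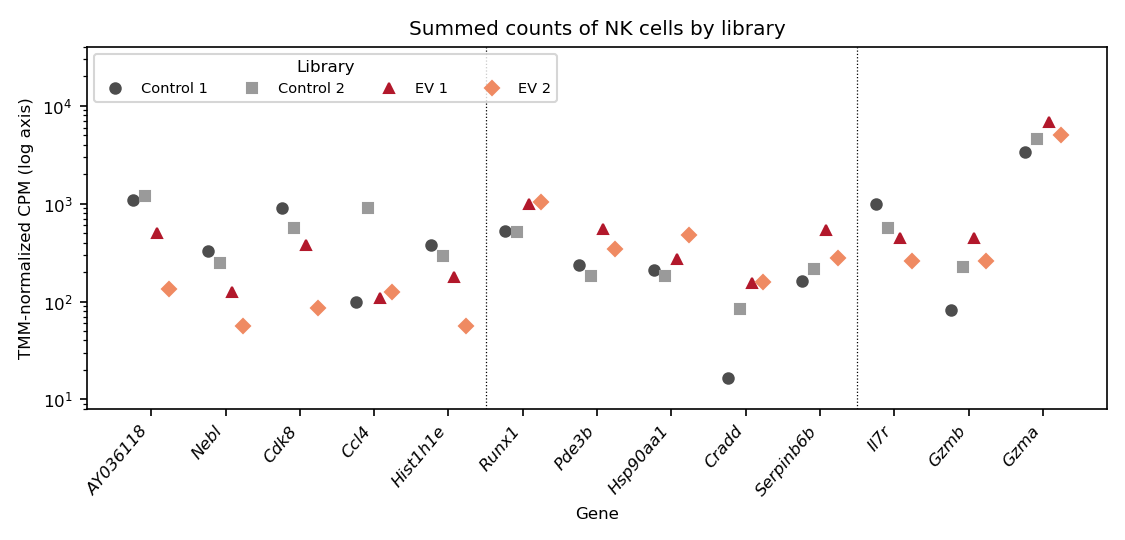
TMM-normalized CPM of summed NK counts by library on a log axis, for the 5 called genes, the 5 genes with the smallest p among those higher in EV and not called, and Il7r, Gzmb and Gzma. The called genes are lowest in EV 2 except Ccl4, which is high in Control 2 alone, at 895 CPM.

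Heat shock genes, which encode protein-folding chaperones, lay higher in EV NK cells without a call. Of 13 tested, 9 were higher in both EV libraries than in both controls, where 17.1% of all tested genes were, 0 were lower in both, and the median log2 change was 0.61. Hsp90aa1 stood at 212, 181, 270.1 and 479 CPM (1.01 ± 0.30, edgeR adjusted p = 0.497) and Hspa8 at 849.6, 912, 1179.6 and 1493 CPM (0.61 ± 0.27, edgeR adjusted p = 0.842). In CD8 T cells, with far more counts, 119 of 12473 genes were called (0.954%), among them 14 of 18 heat shock genes, all higher, with a median of 0.72 over the list. There Hsp90aa1 stood at 173, 181, 293 and 303 CPM. Both cell types came from the same libraries, so the NK values are not an independent repeat.

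With all 4 libraries the effector genes Gzmb and Gzma were not called. Gzmb stood at 81.7, 223, 450.2 and 259 CPM (1.03 ± 0.34, edgeR adjusted p = 0.543) and Gzma at 3366, 4580.2, 6906 and 5074 CPM (0.59 ± 0.32, edgeR adjusted p = 0.912). Both EV libraries were above both controls in each. The change of Gzmb was 2.08 without Control 2, 1.43 without EV 2 and 0.63 without Control 1. That of Gzma was 0.80 without EV 2, 0.36 without EV 1 and 0.39 without Control 1. Leaving out the Il7r cells gave changes of 0.74 and 0.26. Of 16 cytotoxic granule genes tested, 5 were higher and 3 lower without overlap (median change 0.26), where 17.1% of all tested genes were higher and 17.2% lower in that way. Prf1 overlapped, at 294, 496, 387 and 591 CPM. Of 10 mature-stage genes, 3 were higher and 1 lower (median 0.28). Of 12 immature-stage genes, 1 was higher and 5 lower (median -0.19), and of 5 genes of the type 1 innate lymphoid list 0 and 3 (median -0.72).

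Il7r itself stood at 997, 559, 450.2 and 259 CPM (-1.16 ± 0.31, edgeR adjusted p = 0.262). It passed as lower with a gate of 1 UMI (-1.14) and in a fit with a replicate block. Its change was -1.52 without EV 1, -0.70 without Control 1 and -0.73 without EV 2. In summed counts a different mix of cells and a different level per cell cannot be told apart. Of 10 interferon response genes tested, 3 were higher without overlap (median 0.29; 17.1% of all tested genes were) and none was called, beside 9 of 31 called higher in CD8 T cells, where 0.689% of all tested genes were. The interferon gamma receptor chain Ifngr1 stood at 498, 521, 1135 and 777 CPM (0.88 ± 0.27, edgeR adjusted p = 0.504). Its change ranged from 0.62 to 1.16 with 1 library left out. Of 18 NK identity genes tested, 4 were higher and 1 lower without overlap (median 0.05), against 17.1% higher and 17.2% lower of all tested genes, and of 6 Ly49 genes 1 and 0 (median -0.02). Klra4 overlapped, at 1846, 849, 1486 and 1009.7 CPM. Of 7 genes that the study names for T cells, which are not independent evidence here, 4 were tested, namely Cdk8, Cdk19, Gzmb and Ifng. Ifng overlapped, at 32.7, 63.0, 81.0 and 47.5 CPM.

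The effect of EVs was compared directly between NK and CD8 T cells by an interaction in 1 edgeR fit over 11698 genes with the library as a block, and 6 genes were called (0.0513%). The log2 change of Il7r in NK less that in CD8 T cells was -1.43 ± 0.25 (edgeR adjusted p = 6.9e-05), and Il7r stood at 457, 496, 604 and 600.1 CPM in CD8 T cells. St6galnac3, a sialyltransferase gene, differed in the same direction (-1.40 ± 0.31, edgeR adjusted p = 0.0145), at 425, 277, 135 and 186 CPM in NK against 60.3, 59.9, 82.9 and 79.7 CPM in CD8 T cells. Zeb2 differed in the other direction (1.78 ± 0.34, edgeR adjusted p = 0.000495), at 556, 579.9, 378 and 1131 CPM in NK cells, where the groups overlapped, and at 4.28, 4.73, 1.92 and 1.72 CPM in CD8 T cells. Gzma did so as well (1.23 ± 0.28, edgeR adjusted p = 0.0220), with 2.46, 6.34, 2.93 and 2.72 CPM in CD8 T cells. There Zeb2 had only 66, 88, 21 and 24 UMIs and Gzma 38, 118, 32 and 38, so both differences rest on few CD8 T counts. Gzma was not called within either cell type, and its groups overlapped in CD8 T cells.

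The remaining called differences, of Ncr1 and Hist1h1b, also rested on few UMIs, and in each a group of 1 cell type had none. Ncr1, which chose the NK cells, had 7, 25, 0 and 0 UMIs among CD8 T cells, with an edgeR adjusted p of 6.9e-05. The linker histone gene Hist1h1b had 0, 0, 5 and 3 UMIs in NK cells and 171, 133, 3 and 11 UMIs among CD8 T cells, with an edgeR adjusted p of 0.00425. No fold is given for either. DESeq2 called 0 genes for this difference, with 172 at an unadjusted p under 0.05, and thinning to 2000 UMIs a cell left 0, with 211. With Control 1, Control 2, EV 1 or EV 2 left out the edgeR fit called 6, 2, 6 and 3 genes, of which 2, 1, 3 and 2 were among the 6. Without the Il7r cells it called 2, Ncr1 and Zeb2 (1.71 ± 0.37, edgeR adjusted p = 0.0195), whereas Gzma (0.90, edgeR adjusted p = 1) and St6galnac3 (-1.19, edgeR adjusted p = 1) did not pass, and Il7r has no NK value there.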

How the data were processed

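The authors deposited UMI counts per gene and cell as filtered 10x matrices, 1 for each library, made per the labels with Cell Ranger 7.1.0 on mm10 from 3′ droplet libraries. The counts were used as deposited, with the cell limits and the NK gate given above, and no cell was removed as a doublet (Scrublet marked 946 of 32725 cells). The members of the NK gate, the gene lists and the tests were chosen with earlier results of these data known.

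Counts were summed over NK cells or CD8 T cells per library and tested with edgeR 4.0.16 (quasi-likelihood, TMM, filterByExpr, Benjamini-Hochberg adjustment), with limma 3.58.1 and R 4.3.3; DESeq2 1.42.0 was an alternative. Shares of cells were compared by exact permutation over libraries. The fits were tested on simulated counts with known changes. Alternatives were another test, filter, gate, cell limit or scaling, thinned cells, and each library left out in turn.

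Named genes were the gate genes and markers, the 15 highest and 10 lowest ratios to CD8 T cells (same sign in all 4 libraries, detection in at least 25% of the cells of the higher type), list members by level or p, all called genes and, for a direction with fewer than 5 calls, the 5 genes with the smallest p. Positions are from GENCODE vM21. Protein sequences were not used here, and a few genes are not reported here.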

Additional observations from a re-analysis of the deposited data

Results flagged for a closer look

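The EV effect differed between NK and CD8 T cells for 6 genes by the interaction term of the edgeR fit, and each is listed for that difference alone. The adjusted p was 6.9e-05 for Il7r and 6.9e-05 for Ncr1, 0.000495 for Zeb2, 0.00425 for Hist1h1b, 0.0145 for St6galnac3 and 0.0220 for Gzma (edgeR, 2 libraries a side in each cell type). Il7r was lower in both EV libraries than in both controls in NK cells and higher in both in CD8 T cells. Zeb2 overlapped between the groups in NK cells, and its CD8 T counts were 66, 88, 21 and 24 UMIs. Gzma had 38, 118, 32 and 38 UMIs in CD8 T cells, so its difference and that of Zeb2 rest on few counts there. Ncr1 chose the NK cells and had 7, 25, 0 and 0 UMIs in CD8 T cells, so its value is no test of an EV effect.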

How the results depend on the processing

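The difference in NK share ranged from -0.189 to 0.00922 percentage points with 1 library left out (0.00563 without EV 1) and was 0.0906 over cells without Cd79a. With 1 library left out, the difference in Cd27 cells without Itgam ranged from -11.2 to 9.21 percentage points (5.35 without Control 1), that in cells with neither from -17.3 to 10.1 (7.44 without EV 1), and that in Klrg1 cells from -5.56 to 10.1 (-3.30 without Control 1). With all UMIs the differences in cells with neither and in Klrg1 cells were -11.9 and 15.2 points without overlap, against -3.60 and 2.26 thinned. Without the Il7r cells that in Cd27 cells without Itgam was 10.8 and that in cells with neither -9.51. The 5 EV calls in NK cells became 0 with DESeq2, 12 without the filter on low counts, 9 with a gate of 1 UMI, 0 with no upper limits and a mitochondrial limit of 5%, 0 without the Il7r cells (chosen after seeing the data) and 4 to 25 with 1 library left out, of which 16 without EV 2, 6 without EV 1 and 4 without Control 2 were higher, as was 1 without the filter; counts under the other settings were within 1.5 times. A fit with a replicate block called 10 genes, 5 of them the same, Il7r among the others (-1.13), and left the share difference at -0.0901. Deviations of gene levels in same-numbered libraries had a correlation of 0.0571. Counting noise in sums of 15 to 37 cells pulls such a correlation toward 0, so it cannot exclude a shared effect. The labels tie no number to a shared source, so the libraries were not treated as pairs. Some values did follow the number, for example the NK share, which was lower in library 1 than in library 2 of both groups. The 6 interaction calls became 0 with DESeq2, 0 after thinning, 2 without the Il7r cells and 2 to 6 with 1 library left out, of which 1 to 3 were among the 6. With 1 library left out, the log2 change of Ccl4 ranged from -2.90 to 0.29, that of Cdk19 from -0.65 to 0.16 (both above 0 without Control 2), and that of Ifng was -0.10 without EV 1 and -0.0650 without Control 1, against 0.22 with all 4. With a pseudocount of 1 CPM the log2 ratios of Gzma and Klra4 were 9.92 and 8.92. The causes of these shifts were not tested. Depth is limited by the 15 to 37 NK cells of a library, and each arm has 2 libraries.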
